A study of Mus musculus with 28 samples.

Results

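Collagen genes encode the chains of the most abundant structural proteins of connective tissue. The 42 genes described here were chosen by symbol: each carries a symbol of the form Col, a number, a and a number, such as Col1a1, on a probe set (the group of probes read as 1 measurement) that names no other gene, on both array types of the study. They are 42 of the 18974 genes measured on both. Col6a4 and Col7a1 met the rule on 1 array type only and are not counted. By protein family there were 11 fibrillar collagens, 6 chains of collagen IV, 6 microfibrillar and anchoring chains, 2 multiplexins, 3 short-chain collagens, 9 fibril-associated collagens and 5 transmembrane or other collagens.

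Total RNA of whole liver, quadriceps (thigh muscle), heart and gastrocnemius (calf muscle) was measured on 28 Affymetrix arrays to compare metabolic tissues of old and young animals. The old group was 24 months (103 weeks) and the young group 6 months (24 weeks) of age. All were female C57BL/6J mice, an inbred strain, housed in groups on chow and fasted overnight before tissue was taken, with no transgene, drug or altered diet named in the labels. Liver and quadriceps had 3 arrays per age on 1 array type, and heart and gastrocnemius had 4 per age on another. The labels do not say which arrays share an animal, so each p-value reflects how these samples spread and no more. Values are log2 expression, on which a difference of 1 is a 2-fold difference, and they are compared only within a probe set.

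A collagen molecule is a rope-like helix of chains that are hydroxylated inside the cell, secreted, trimmed and cross-linked. The fibrillar collagens I, III and V build the tension-bearing fibres, collagen VI makes beaded filaments around cells, and collagen IV forms the sheet of the basement membrane under endothelium and around each muscle fibre. Fibroblasts make most of the fibrillar collagen in muscle and heart, and stellate cells and portal fibroblasts do so in liver, where its build-up is the mark of fibrosis. In skeletal muscle and heart, synthesis of collagen is known to be high during growth and to slow in adult life.

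Promoter sequence was found for 33 of the 42 genes in a RefSeq table of build GRCm38.p6 that covers 250 bases before and 50 after each start site. GGGCGG, the letters of a GC box, was present on either strand in 20 of the 33 (60.6%), against 35.9% of all 27025 promoters in the table. CCAAT, read on both strands, was present in 10 (30.3%), against 37.9% of all promoters, and TATAAA in 5 (15.2%), against 14.2%. The sequences printed here are the 250 bases before the start of Col1a2 (chr6:4505368-4505617, plus strand) and Col3a1 (chr1:45311288-45311537, plus strand). They were chosen because, as deposited, these fibrillar chains had opposite signs of age difference in liver and muscle. With arrays centred on their median, Col1a2 in liver was -0.05. The third sequence is the 78-base stretch that the promoter windows of Col4a1 and Col4a2 share (chr8:11312777-11312854, written on the plus strand). It was chosen because, as deposited, the age differences of this pair had the same sign in each tissue. With centred arrays Col4a1 in liver was -0.04. The start sites of Col4a1, on the minus strand, and Col4a2, on the plus strand, lie 21 bases apart. Capitals mark these 3 motifs on either strand.
Col1a2: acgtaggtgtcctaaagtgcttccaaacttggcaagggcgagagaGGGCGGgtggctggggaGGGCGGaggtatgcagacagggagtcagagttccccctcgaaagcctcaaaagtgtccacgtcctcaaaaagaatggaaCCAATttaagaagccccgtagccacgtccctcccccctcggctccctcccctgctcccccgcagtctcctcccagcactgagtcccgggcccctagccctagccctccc
Col3a1: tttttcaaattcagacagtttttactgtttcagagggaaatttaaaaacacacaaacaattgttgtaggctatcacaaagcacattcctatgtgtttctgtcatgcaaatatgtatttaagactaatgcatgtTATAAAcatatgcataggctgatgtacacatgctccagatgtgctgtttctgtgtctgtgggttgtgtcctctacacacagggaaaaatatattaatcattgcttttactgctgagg
Col4a1 and Col4a2, shared stretch: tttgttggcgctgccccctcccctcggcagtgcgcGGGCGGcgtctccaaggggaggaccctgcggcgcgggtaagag
The Col1a2 stretch held 1 CCAAT and 2 GGGCGG, the Col3a1 stretch held 1 TATAAA, and the shared Col4a1 and Col4a2 stretch held 1 GGGCGG. These matches describe letters and show no binding. Other members that are direct neighbours on a chromosome are Col4a3 with Col4a4, Col4a5 with Col4a6, Col6a1 with Col6a2, Col6a5 with Col6a6, Col3a1 with Col5a2 and Col9a1 with Col19a1.

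The arrays carried the transcripts of their tissues. Mean log2 levels of the tissue-defining genes were 13.78 to 13.85 on liver arrays (5 genes), 13.94 to 14.03 on quadriceps arrays (5 genes), 13.11 to 13.26 on gastrocnemius arrays (5 genes) and 11.95 to 12.02 on heart arrays (4 genes). Some arrays stood apart in marker genes of another organ or of part of the heart. Exocrine pancreas markers averaged 9.62 in liver 24-month replicate 2, against 6.00 to 6.49 in the other liver arrays. Liver-defining genes averaged 9.47 in quadriceps 24-month replicate 1, against 6.30 to 7.84 in the other quadriceps arrays. Atrial markers averaged 7.27 and 7.41 in heart 24-month replicates 1 and 4, against 8.23 to 9.39 in the other heart arrays. Without that liver array the collagen median was 0.24, with 0 of 42 past the threshold used below. Without that quadriceps array it was 0.05, also with 0 past, and Col1a2, Col3a1 and Col6a3 were -0.30, -0.13 and -0.11. Without both of those hearts the collagen median was 0.02, with 0 past. Col1a1 and Col1a2 were then -0.11 each and Col5a2 -0.09, and some other values that moved stand beside their results.

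In liver, every collagen gene had the higher mean at 24 months: 42 of 42, where 54.3% of all 19928 genes were higher and 45.1% lower. With quantile or loess scaling 41 were higher, and with arrays centred on their median 36, under which the median of all genes was -0.09 and all 42 lay above it. The median difference, 24 minus 6 months, was 0.28 over the collagen genes and 0.03 over all genes, and single genes ran from 0.05 to 0.54. No collagen gene passed limma's adjusted p of 0.05, which 0.326% of all genes passed. At an unadjusted p under 0.05, 25 were higher and 0 lower, against 18.4% and 14.4% of all genes. The 24-month arrays all lay above the 6-month arrays for 23 of the 42, where 18.7% of all genes did so. Other settings called between 0 and 30 of the 42, and the leave-one-out fits between 0 and 26. The shares of all genes called in those fits are not given here, so these counts are not set against all genes. Fewer cells of a type and less RNA per cell cannot be told apart in whole tissue, in this tissue or the others.

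In the 3 muscles most of a group of 12 collagens picked by hand had the lower mean at 24 months. These are Col1a1, Col1a2, Col3a1, Col4a1, Col4a2, Col5a1, Col5a2, Col6a1, Col6a2, Col6a3, Col15a1 and Col18a1, called the core collagens below. The group was chosen with earlier results of these data known and no expression level defines it. Its counts therefore describe these values and test nothing. In gastrocnemius 11 of the 12 were lower at 24 months with a median of -0.23, in heart 10 of 12 with a median of -0.08, and in quadriceps 11 of 12 with a median of -0.06. These counts were the same with quantile, median-centred and loess scaling. Of all genes, 44% were lower in gastrocnemius, 43.2% in heart and 46.4% in quadriceps. In liver 12 of 12 were higher with a median of 0.16, which became 8 higher and 4 lower when arrays were centred on their median.

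No collagen gene passed limma's adjusted threshold in any muscle. A joint fit with heart called 6 in gastrocnemius, and no alternative called any in heart or quadriceps. The share of all genes called in that joint fit is not given here, and the shares below belong to the separate fits. In gastrocnemius 1 was higher and 9 lower at an unadjusted p under 0.05, where 7.44% and 9.05% of all genes were, and 0.00998% of all genes passed the adjusted threshold. Its 24-month arrays all lay below the 6-month arrays for 9 collagen genes and above them for 0, against 4.78% and 3.86% of all genes. In heart 0 were higher and 4 lower at an unadjusted p under 0.05, against 3.89% and 2.1%, with 0.00665% of all genes past the adjusted threshold. Its arrays did not overlap, with 24 months lower, for 3 collagen genes, against 1.36% of all genes, and for 0 with 24 months higher, against 1.94%. In quadriceps 1 was higher and 2 lower, against 3.8% and 3.26%, with 0.00502% of all genes past the adjusted threshold. Its arrays did not overlap for 3 genes that were higher and 4 that were lower at 24 months, against 6.69% and 5.33%. Over all 42 genes the median was 0.01 in gastrocnemius, -0.01 in heart and 0.03 in quadriceps, each against 0.01 for all genes. By sign alone, 24 were higher and 17 lower in gastrocnemius (55% and 44% of all genes), 16 and 24 in heart (55.3% and 43.2%) and 26 and 16 in quadriceps (52.3% and 46.4%). Quantile, centred and loess scaling left 13 to 19 higher in gastrocnemius, 9 to 14 in heart and 25 or 26 in quadriceps.

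**Figure D1:**
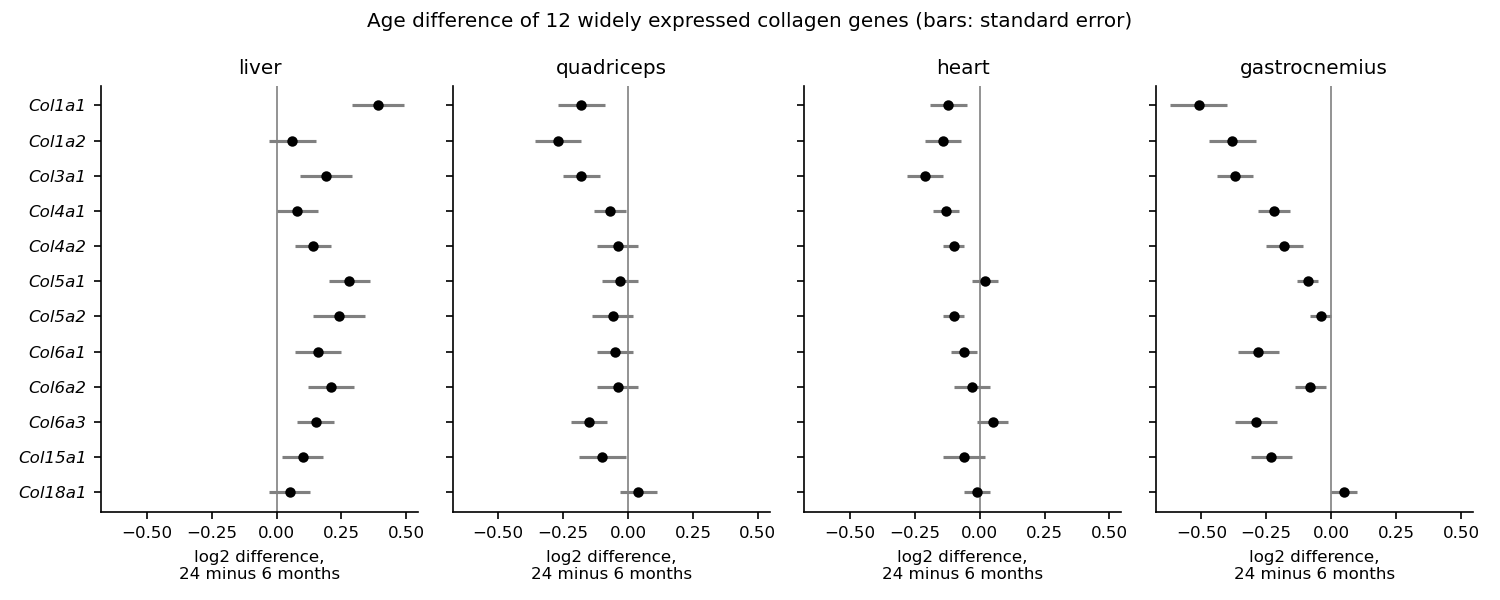
The 12 core collagens, 24 minus 6 months on the log2 scale, in each of the 4 tissues. Points are limma estimates and bars are standard errors, with 3 arrays per age in liver and quadriceps and 4 per age in heart and gastrocnemius. Liver points lie between 0.05 and 0.39, and Col1a1 in gastrocnemius is the lowest point at -0.51.

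As deposited, the fibrillar collagens I and III had age differences of opposite sign in liver and the muscles. Col1a1 encodes the main chain of collagen I, the chief fibre of tendon, scar and interstitium. In gastrocnemius it measured 7.63, 7.47, 7.62 and 7.68 at 24 months, against 8.24, 7.94, 8.40 and 7.85 at 6 months. All 4 old arrays lay below all 4 young ones, and the young arrays were the more spread (7.60 ± 0.09 at 24 months and 8.11 ± 0.26 at 6 months, SD, n = 4 each). The difference was -0.51 ± 0.11 (SE, adjusted p = 0.111). In liver Col1a1 measured 7.60, 7.62 and 7.32 at 24 months, against 7.11, 7.13 and 7.13 at 6 months. The old arrays were all higher, by 0.39 ± 0.10 (SE, adjusted p = 0.0584, a ratio of 1.31), and the young arrays were close together (7.12 ± 0.01, SD, n = 3). In quadriceps the values were 8.35, 8.19 and 8.16 at 24 months, against 8.57, 8.37 and 8.31 at 6 months, which overlap (-0.18 ± 0.09, adjusted p = 0.728), and without 6-month replicate 1 the difference was -0.11. In heart they were 7.86, 7.96, 7.76 and 7.79 at 24 months, against 7.94, 8.04, 8.07 and 7.82 at 6 months, which overlap too (-0.12 ± 0.07, adjusted p = 0.903).

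Col1a2, the partner chain of collagen I, measured 7.44, 7.36, 7.60 and 7.52 in gastrocnemius at 24 months, against 7.91, 7.76, 8.10 and 7.68 at 6 months. The ages did not overlap, and the difference was -0.38 ± 0.09 (SE, adjusted p = 0.121). In quadriceps it measured 8.24, 8.19 and 8.08 at 24 months, against 8.60, 8.37 and 8.34 at 6 months, again without overlap (-0.27 ± 0.09, adjusted p = 0.616). In heart the difference was -0.14 (adjusted p = 0.908). In liver Col1a2 measured 7.60, 7.48 and 7.34 at 24 months, against 7.39, 7.38 and 7.46 at 6 months. The ages overlapped, the difference was 0.06 ± 0.09 (adjusted p = 0.628), and with arrays centred on their median it was -0.05.

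Col3a1, the chain of collagen III in fine reticular fibres, had the smallest p of the family in gastrocnemius and heart. Gastrocnemius arrays measured 7.37, 7.31, 7.55 and 7.45 at 24 months, against 7.87, 7.70, 7.90 and 7.69 at 6 months. The ages did not overlap (-0.37 ± 0.07, adjusted p = 0.103). Heart arrays measured 7.61, 7.67, 7.57 and 7.68 at 24 months, against 7.86, 7.99, 7.88 and 7.65 at 6 months. Here 1 young array, replicate 4, lay within the range of the old ones, and the difference was -0.21 ± 0.07 (unadjusted p = 0.0135, adjusted p = 0.642). It was -0.23 without the 2 old hearts that were low in atrial markers. Quadriceps arrays measured 7.26, 7.38 and 7.43 at 24 months, against 7.60, 7.55 and 7.47 at 6 months, without overlap (-0.18 ± 0.07, adjusted p = 0.678). Liver arrays measured 7.29, 7.29 and 7.05 at 24 months, against 6.90, 7.09 and 7.06 at 6 months, with overlap (0.19 ± 0.10, adjusted p = 0.194).

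**Figure D2:**
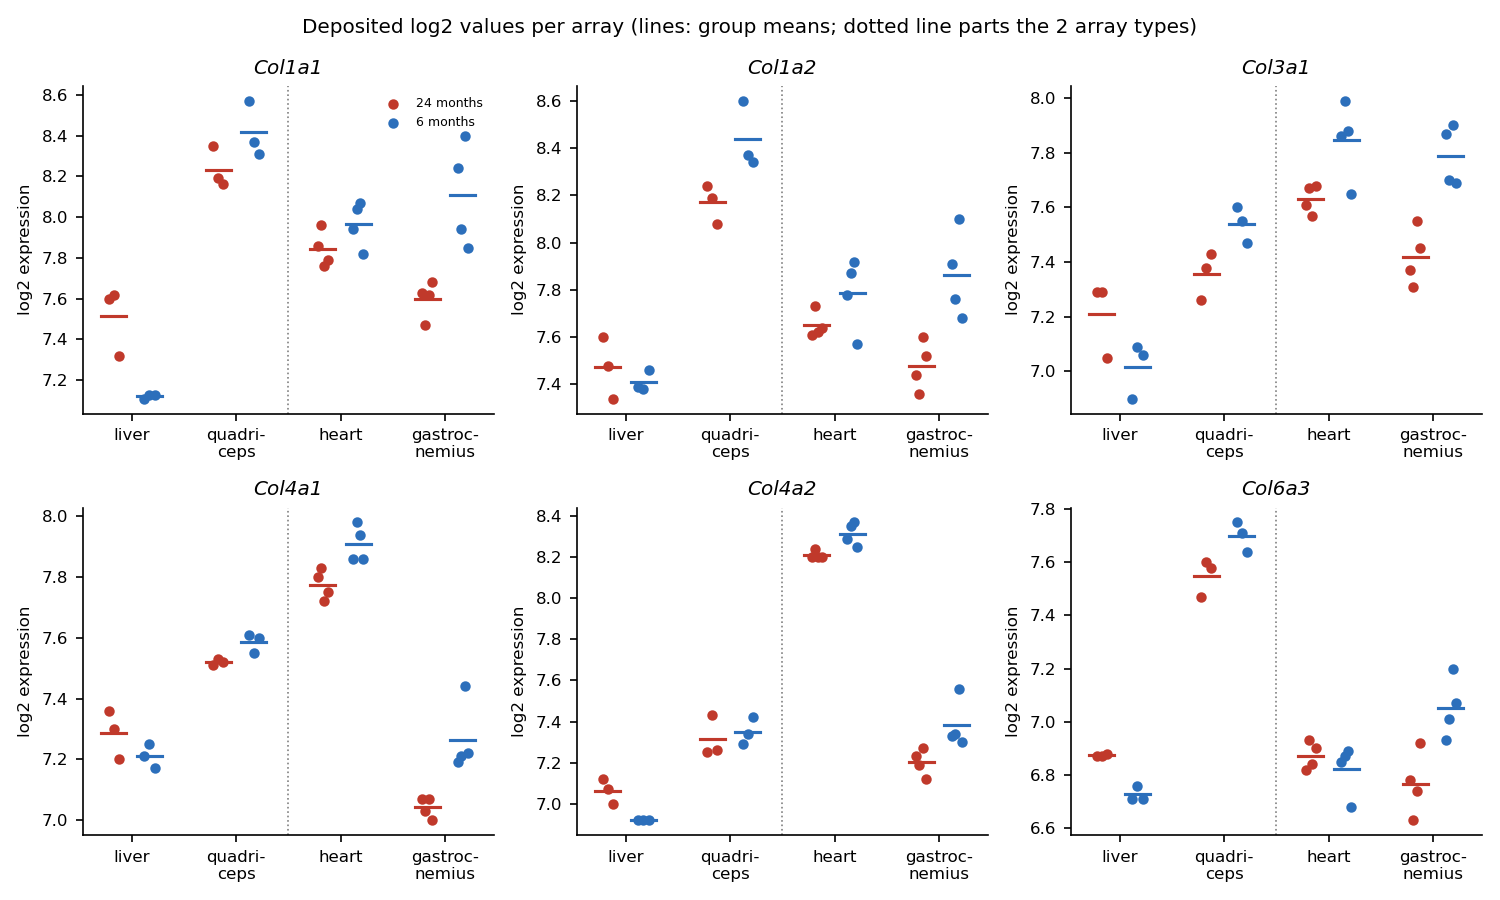
Log2 expression of Col1a1, Col1a2, Col3a1, Col4a1, Col4a2 and Col6a3 on every array, by tissue, with 24 months left of 6 months and the group mean as a line. In gastrocnemius all 6 genes have every 24-month array below every 6-month array, as with Col1a1 at 7.47 to 7.68 against 7.85 to 8.40.

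Collagen V sets the width of collagen I fibres. Its Col5a1 chain measured 7.19, 7.07 and 7.02 in liver at 24 months, against 6.88, 6.81 and 6.76 at 6 months, with no overlap (0.28 ± 0.08, adjusted p = 0.0731). In gastrocnemius it measured 6.64, 6.65, 6.62 and 6.71 at 24 months, against 6.74, 6.75, 6.73 and 6.76 at 6 months. The ages were apart by a narrow margin (-0.09 ± 0.04, adjusted p = 0.325). The Col5a1 difference was 0.02 in heart and -0.03 in quadriceps. Col5a2 was apart in heart, with 6.44, 6.47, 6.44 and 6.44 at 24 months against 6.55, 6.56, 6.58 and 6.51 at 6 months. That difference was -0.10 ± 0.04 (unadjusted p = 0.0256, adjusted p = 0.747). It was 0.24 in liver, -0.06 in quadriceps and -0.04 in gastrocnemius.

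Cartilage is where several of the other fibrillar collagens are best known. Col2a1, the main cartilage collagen, measured 7.54, 7.29 and 7.09 in liver at 24 months, against 6.91 on each of the 3 arrays at 6 months. Old arrays were all higher and spread over a wide range (0.40 ± 0.11, adjusted p = 0.068). Its difference was between 0.01 and 0.03 in the 3 muscles. Array medians in liver were 6.47 to 6.62, and whether Col2a1 stood above background there was not tested. Of the 11 fibrillar genes, 7 were higher in liver at an unadjusted p under 0.05, against 18.4% of all genes. Their median in liver was 0.28. The family median was -0.04 in gastrocnemius, 0.00 in heart and 0.01 in quadriceps, and Col2a1, Col11a2, Col24a1 and Col27a1 had differences between 0.00 and 0.06 there.

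Collagen IV has 6 chains. Col4a1 and Col4a2 form the network of nearly all basement membranes, and Col4a3 to Col4a6 replace it in places such as the kidney filter and smooth muscle. Col4a1 measured 7.07, 7.03, 7.07 and 7.00 in gastrocnemius at 24 months, against 7.19, 7.21, 7.44 and 7.22 at 6 months. Col4a2 measured 7.23, 7.19, 7.27 and 7.12 at 24 months, against 7.33, 7.34, 7.56 and 7.30 at 6 months. Both chains were apart, with young replicate 3 the highest array for each. The differences were -0.22 ± 0.06 for Col4a1 (adjusted p = 0.151) and -0.18 ± 0.07 for Col4a2 (adjusted p = 0.235), and without that array -0.16 and -0.12.

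In heart the same chains were apart as well. Col4a1 measured 7.80, 7.83, 7.72 and 7.75 at 24 months, against 7.86, 7.98, 7.94 and 7.86 at 6 months (-0.13 ± 0.05, unadjusted p = 0.0188, adjusted p = 0.692). Col4a2 measured 8.20, 8.24, 8.20 and 8.20 at 24 months, against 8.29, 8.35, 8.37 and 8.25 at 6 months (-0.10 ± 0.04, adjusted p = 0.798). Without the 2 atrial-low old hearts the values were -0.14 and -0.10. In quadriceps Col4a1 measured 7.51, 7.53 and 7.52 at 24 months, against 7.61, 7.55 and 7.60 at 6 months, apart by a narrow margin (-0.07 ± 0.06, adjusted p = 0.866), and the Col4a2 difference was -0.04. In liver the pair measured 0.08 for Col4a1 (adjusted p = 0.507) and 0.14 for Col4a2 (adjusted p = 0.207). Col4a2 was apart there, with 7.12, 7.07 and 7.00 at 24 months against 6.92 on each array at 6 months.

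In liver the minor collagen IV chains Col4a4, Col4a5 and Col4a6 had larger differences than Col4a1 and Col4a2. The other minor chain, Col4a3, measured 6.62, 6.48 and 6.34 in liver at 24 months, against 6.21, 6.37 and 6.34 at 6 months, with overlap. At 6 months the means of Col4a4, Col4a5 and Col4a6 (6.41, 6.09 and 5.99) were below the liver array medians of 6.47 to 6.62. Col4a5 measured 6.81, 6.64 and 6.25 in liver at 24 months, against 6.09, 6.12 and 6.07 at 6 months. The old arrays were all higher but replicate 3 was close to the young ones (0.47 ± 0.13, adjusted p = 0.0674). Col4a4 measured 6.84, 6.78 and 6.58 at 24 months, against 6.38, 6.38 and 6.47 at 6 months, also apart (0.32 ± 0.09, adjusted p = 0.0674). Col4a6 measured 6.70, 6.30 and 6.21, against 6.04, 5.97 and 5.95 (24 and 6 months), apart as well (0.42 ± 0.12). In gastrocnemius the 4 minor chains lay between 0.01 and 0.11, and in heart between -0.05 and 0.00. Col4a4 in quadriceps measured 6.57, 6.55 and 6.57 at 24 months, against 6.26, 6.52 and 6.38 at 6 months, apart (0.18 ± 0.08, adjusted p = 0.706).

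The multiplexins Col15a1 and Col18a1 are basement membrane collagens with heparan sulfate or chondroitin sulfate chains, and Col18a1 is the source of endostatin. Col15a1 measured 6.53, 6.33, 6.49 and 6.56 in gastrocnemius at 24 months, against 6.59, 6.59, 6.88 and 6.77 at 6 months. The ages did not quite overlap (-0.23 ± 0.08, adjusted p = 0.214). Its difference was -0.10 in quadriceps, -0.06 in heart and 0.10 in liver, and in heart it was 0.01 without the 2 atrial-low arrays. Col18a1, the collagen of hepatocytes, measured 9.47, 9.62 and 9.50 in liver at 24 months, against 9.51, 9.45 and 9.47 at 6 months. The ages overlapped and its difference of 0.05 was the smallest of the 42 in liver. In the muscles it lay between -0.01 and 0.05.

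Collagen VI links the basement membrane of the muscle fibre to the fibres outside it. Col6a3, its largest chain, measured 6.78, 6.63, 6.74 and 6.92 in gastrocnemius at 24 months, against 6.93, 7.01, 7.20 and 7.07 at 6 months. The ages did not quite overlap (-0.29 ± 0.08, adjusted p = 0.138). Col6a1 measured 7.28, 7.21, 7.53 and 7.41 at 24 months, against 7.57, 7.58, 7.81 and 7.60 at 6 months, apart as well (-0.28 ± 0.08, adjusted p = 0.16). Col6a2, which assembles with both, measured 7.28, 7.29, 7.42 and 7.42 at 24 months, against 7.40, 7.37, 7.57 and 7.41 at 6 months, with overlap (-0.08 ± 0.06, adjusted p = 0.514).

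In quadriceps Col6a3 measured 7.47, 7.60 and 7.58 at 24 months, against 7.75, 7.71 and 7.64 at 6 months, apart (-0.15 ± 0.07, adjusted p = 0.706), while Col6a1 was -0.05 and Col6a2 -0.04. In heart the chains Col6a1, Col6a2 and Col6a3 gave -0.06, -0.03 and 0.05. In liver Col6a3 measured 6.87, 6.87 and 6.88 at 24 months, against 6.71, 6.76 and 6.71 at 6 months. The ages were apart and both groups were tight (0.15 ± 0.07, adjusted p = 0.184). Col6a1 in liver was 0.16 and Col6a2 0.21, both with overlap. Col6a6, a chain that can take the place of Col6a3, was higher by 0.34 ± 0.10 in liver and had differences of -0.09, -0.01 and -0.06 in quadriceps, heart and gastrocnemius.

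The fibril-associated collagens decorate fibres or organise cartilage and basement membrane zones. In liver all 9 had the higher mean at 24 months with a median of 0.30. Of these, 6 were higher at an unadjusted p under 0.05, against 18.4% of all genes. Col9a3, a chain of the cartilage collagen IX, gave the largest liver difference of the 42 genes. It measured 7.83, 7.54 and 7.29 at 24 months, against 7.13, 7.04 and 6.87 at 6 months. The ages were apart and the old arrays were spread (0.54 ± 0.14, adjusted p = 0.0587). Array medians in liver were 6.47 to 6.62, and whether Col9a3 stood above background was not tested. On the same arrays the skeletal-muscle-defining genes had a median difference of 0.34. Col12a1 and Col14a1, which bind collagen I fibres, had small liver values of 0.06 each. In the muscles the 9 had medians of 0.07, 0.01 and 0.01 in quadriceps, heart and gastrocnemius.

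The short-chain collagens were the least alike. Col8a2, a hexagonal lattice collagen of vessel walls and cornea, had the higher mean at 24 months in all 4 tissues. In gastrocnemius it measured 6.40, 6.43, 6.23 and 6.44 at 24 months, against 6.18, 6.16, 6.30 and 6.27 at 6 months, with 1 old array inside the young range (0.15 ± 0.06, adjusted p = 0.275). In quadriceps it measured 6.31, 6.48 and 6.37, against 6.10, 6.26 and 6.23 (24 and 6 months), apart (0.19 ± 0.08, adjusted p = 0.678). Its difference was 0.35 in liver and 0.09 in heart. Col10a1, the collagen of hypertrophic cartilage, measured 7.27, 6.20 and 6.06 in quadriceps at 24 months, against 5.95, 6.04 and 5.96 at 6 months. Old replicate 1, the array with liver transcripts, stood far above the rest (0.53 ± 0.27, adjusted p = 0.74). On the liver arrays themselves Col10a1 measured 5.57 to 5.92 at 24 months and 5.24 to 5.50 at 6 months. The part of liver transcripts in the high quadriceps value was not tested, and the difference without that array is not given here. In gastrocnemius Col10a1 had the lower mean at 24 months, with 4.58, 4.69, 4.55 and 4.54 at 24 months against 5.02, 4.98, 4.61 and 4.78 at 6 months, with overlap (-0.26 ± 0.09, adjusted p = 0.213). The 5 transmembrane or other collagens (Col13a1, Col17a1, Col23a1, Col25a1 and Col26a1) all had an unadjusted p under 0.05 in liver with a median of 0.28. At that p, 18.4% of all genes were higher in liver. In gastrocnemius all 5 had higher means at 24 months, with a median of 0.05.

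Read across tissues, 10 of the 42 genes (23.8%) had the lower mean at 24 months in quadriceps, heart and gastrocnemius, where 10.5% of the 18974 shared genes did. All 10 had the higher mean in liver, a pattern of 3.53% of shared genes. They were Col1a1, Col1a2, Col3a1, Col4a1, Col4a2, Col5a2, Col6a1, Col6a2, Col6a6 and Col15a1, of which 9 belong to the 12 core collagens. Another 11 (26.2%) had the higher mean in all 4 tissues, against 11.9% of shared genes: Col2a1, Col8a2, Col9a1, Col9a2, Col9a3, Col13a1, Col22a1, Col24a1, Col25a1, Col26a1 and Col27a1. None was lower in all 4, against 6.94%. These counts use the sign alone, however small the difference.

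In liver the age difference of all genes depended on how bright they were. When all liver genes were split by mean expression into 10 classes, dim to bright, the median difference over all genes was 0.18 in classes 3 and 4, 0.15 in class 5, 0.02 in class 6, -0.09 in class 7 and -0.14 in classes 8 and 9. The collagen genes sat mostly in classes 5, 6 and 7, with 11, 14 and 9 members. Their medians there were 0.32, 0.22 and 0.32. In class 7, which holds Col1a1, Col1a2, Col4a1 and Col9a3, the collagen median was positive where the class median was negative. The 2 brightest members, Col14a1 and Col18a1 in classes 8 and 9, had differences of 0.06 and 0.05. The part of this dependence on brightness in the collagen values was not tested.

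**Figure D3:**
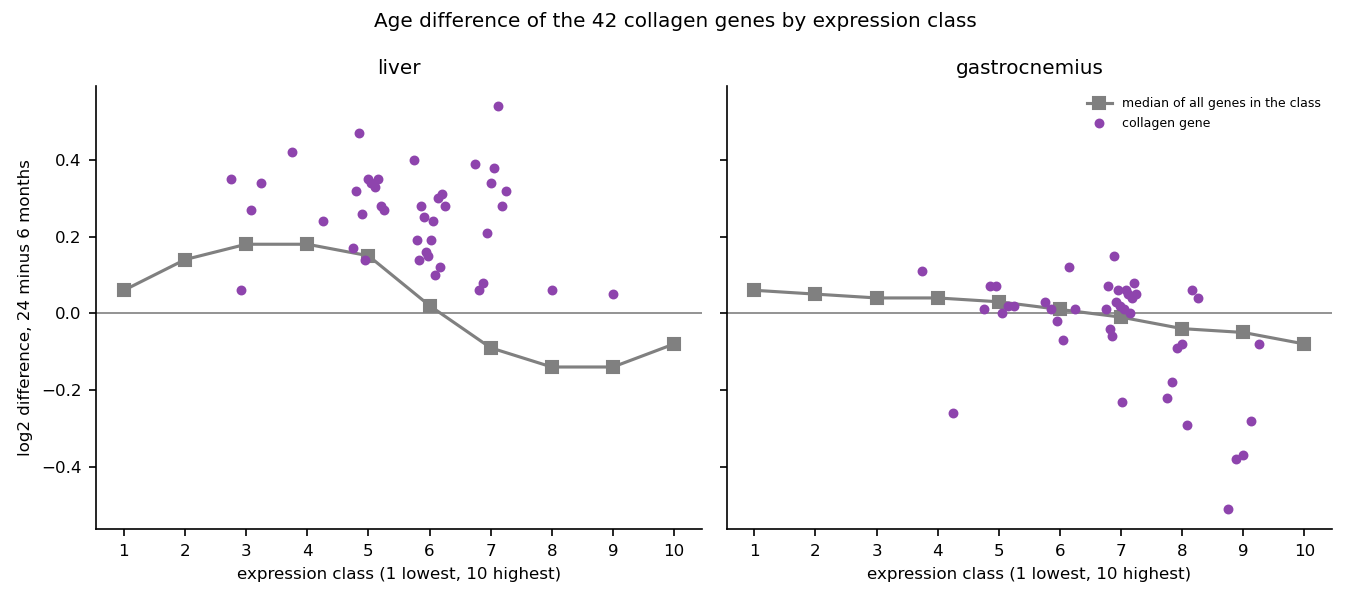
Age difference, 24 minus 6 months, of collagen genes (points) by class of mean expression in liver and gastrocnemius, with the median of all genes in each of 10 classes as a line. In liver the all-gene median runs from 0.18 in class 3 to -0.14 in class 9, and all 42 points are above 0.

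Genes that define skeletal muscle, and markers of Schwann cells, ordered the old liver arrays as the collagens did, with replicate 1 highest and replicate 3 lowest. As deviations from the 6-month mean, the median collagen gene was at 0.37, 0.31 and 0.11 in the 24-month replicates, against 0.00, 0.01 and -0.01 in the 6-month ones. The 5 skeletal-muscle-defining genes were all higher (median 0.34), with deviations of 0.47, 0.29 and 0.18 on the 24-month arrays. Their mean level was 6.32 to 6.53 at 24 months, against 6.12 to 6.13 at 6 months. Schwann cell markers were higher for 7 of 7 (median 0.29, mean level 6.32 to 6.50 at 24 months and 6.09 to 6.13 at 6 months). Cartilage and bone markers were higher for 6 of 8 (median 0.23). The part of this shift in the collagen values was not tested.

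Markers of the cells that make collagen in liver gave smaller values. Fibroblast markers were higher for 11 of 14 (median 0.15), with a mean level of 6.82 to 6.84 at 24 months against 6.70 to 6.71 at 6 months, so the ages did not overlap. Hepatic stellate markers were higher for 6 of 9 (median 0.05), with a mean level of 8.20 to 8.41 at 24 months against 8.19 to 8.29 at 6 months. Smooth muscle and pericyte markers were higher for 9 of 10 (median 0.17), and endothelial markers were lower for 8 of 10 (median -0.08). None of the marker genes named by these lists passed limma's adjusted threshold. Their part in the collagen values was not tested. Liver 24-month replicate 3 was the old array nearest the young ones in the collagen genes, and without it 26 of the 42 passed the adjusted threshold, with a median of 0.34. The share of all genes that passed without it is not given here, so this count is not a result about the collagen genes.

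**Figure D4:**
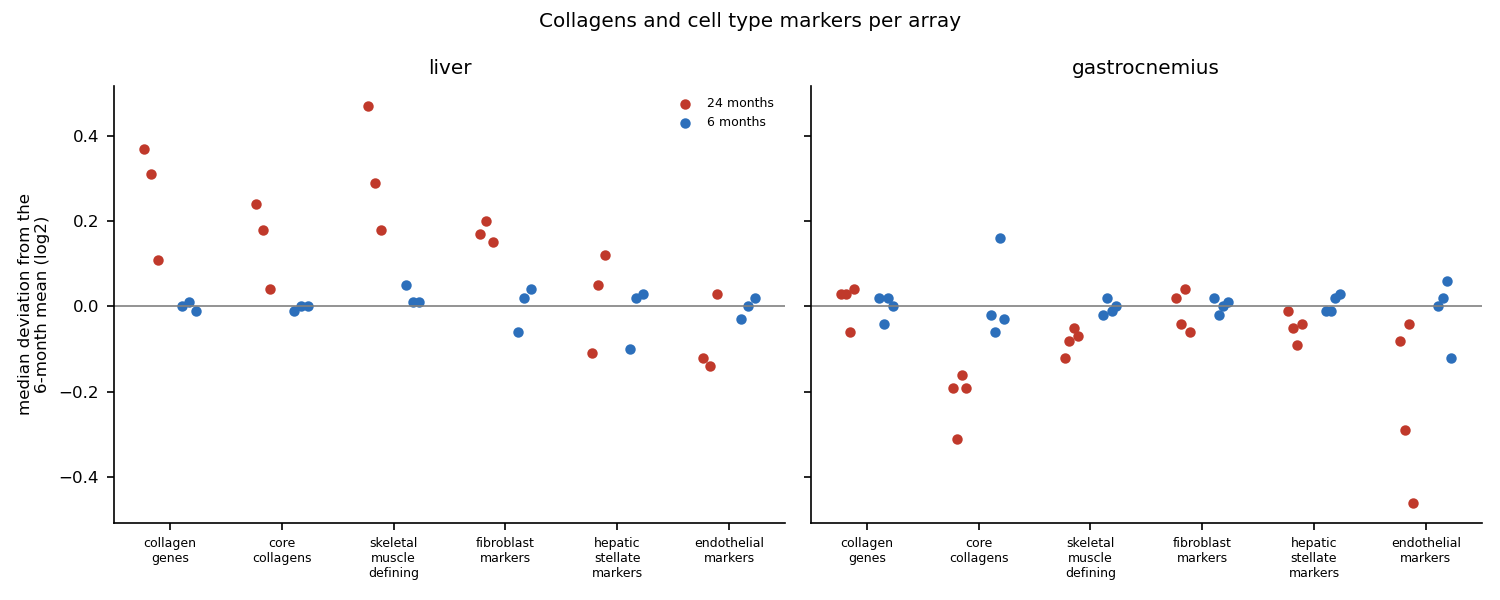
Median deviation from the 6-month mean, on the log2 scale, of 6 gene lists on every liver and gastrocnemius array, with 24 months left of 6 months. In liver collagen genes lie at 0.37, 0.31 and 0.11 on the 24-month arrays and skeletal-muscle-defining genes at 0.47, 0.29 and 0.18, and in gastrocnemius core collagens lie at -0.31 to -0.16 on the 24-month arrays.

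In gastrocnemius the 5 collagen genes in class 9 of expression (Col1a1, Col1a2, Col3a1, Col6a1 and Col6a2) had a median of -0.37, where all genes of that class had -0.05. The 7 members of class 8 had -0.09, against -0.04 for all genes, and the 16 of class 7 had 0.03, against -0.01, although Col15a1 in that class was -0.23. Classes 5 and 6 had 0.02 and 0.01, and the 2 dimmest members, Col4a6 and Col10a1 in class 4, had 0.11 and -0.26. The core collagens averaged 7.01, 6.94, 7.06 and 7.06 on the 24-month arrays, against 7.21, 7.17, 7.37 and 7.18 on the 6-month arrays, without overlap. At an unadjusted p under 0.05, 8 of the 12 were lower, against 9.05% of all genes. Young replicate 3 was the highest array. Tendon markers were also highest on that array, at 6.71, against 6.11 to 6.33 on the other young arrays and 6.21 to 6.29 on the old ones. Without it the differences were -0.41 for Col1a1, -0.30 for Col1a2, -0.33 for Col3a1, -0.16 for Col4a1, -0.23 for Col6a1 and -0.24 for Col6a3.

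Endothelial markers were lower for 9 of 9 in gastrocnemius (median -0.26), 4 of them at an unadjusted p under 0.05, against 9.05% of all genes. Their mean level was 7.51, 7.31, 7.59 and 7.14 at 24 months against 7.64, 7.64, 7.73 and 7.44 at 6 months. Of the fibroblast markers 8 of 13 were higher (median 0.02), and their mean level was 7.23 to 7.34 at 24 months against 7.26 to 7.33 at 6 months. Macrophage markers were higher for 10 of 10 (median 0.16, mean level 6.61 to 6.92 at 24 months and 6.50 to 6.58 at 6 months). Smooth muscle and pericyte markers were lower for 8 of 10 (median -0.10). Schwann cell markers were lower for 7 of 7 (median -0.07, mean level 6.19 to 6.26 at 24 months and 6.31 to 6.36 at 6 months). Skeletal-muscle-defining genes were lower for 4 of 5 (median -0.08, mean level 13.11 to 13.19 at 24 months and 13.23 to 13.26 at 6 months). In heart, endothelial markers were lower for 7 of 9 (median -0.04), 3 of them at an unadjusted p under 0.05, against 2.1% of all genes. Their mean level was 8.90 to 8.98 at 24 months and 8.93 to 9.05 at 6 months. In heart, fibroblast markers were lower for 9 of 13 (median -0.06, mean level 7.93 to 8.04 at 24 months and 7.98 to 8.07 at 6 months). In quadriceps they were lower for 10 of 14 (median -0.05, mean level 7.92 to 8.05 at 24 months and 7.98 to 8.18 at 6 months). The part of any of these cell types in the collagen values was not tested.

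Whether the age difference itself differed between tissues was tested within each array type. For liver minus quadriceps, 39 of 42 collagen genes were positive, where 52.3% of all genes were positive and 47.2% negative, and the median was 0.25 against 0.02 for all genes. None passed limma's adjusted threshold, which 0.0151% of all genes passed, and 16 had a positive difference at an unadjusted p under 0.05 against 10.4% of all genes. Col1a1 had the smallest p at 0.57 ± 0.14 (SE, adjusted p = 0.0924), followed by Col6a3 at 0.30 (adjusted p = 0.136), Col6a6 at 0.42 (adjusted p = 0.14), Col3a1 at 0.38 (adjusted p = 0.145) and Col5a1 at 0.30 (adjusted p = 0.157). Without liver 24-month replicate 3, 7 of the 42 passed, and the other alternatives called between 0 and 9. The shares of all genes called in those fits are not given here.

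For heart minus gastrocnemius, 19 collagen genes were positive and 23 negative (49.1% and 50.2% of all genes) with a median of -0.01, and none passed the adjusted threshold, which 0.595% of all genes passed. At an unadjusted p under 0.05, 4 were positive and 1 negative, against 8.83% and 4.92% of all genes. Col6a3 had the smallest p (0.34 ± 0.10, adjusted p = 0.135), then Col10a1 (0.35, adjusted p = 0.235), Col1a1 (0.38, adjusted p = 0.24), Col6a1 (0.22, adjusted p = 0.323) and Col14a1 (-0.26, adjusted p = 0.338). Over the core collagens the median was 0.13, with 10 of 12 positive.

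Collagen genes were also compared between tissues of young animals, where most genes of any kind passed the threshold. Between liver and quadriceps, 20 of the 42 at 6 months passed limma's adjusted threshold, 3 higher and 17 lower in liver, where 68.2% of all genes passed (40.7% higher and 27.5% lower). Col18a1, whose product is secreted by hepatocytes, had the largest difference, with 9.51, 9.45 and 9.47 against 6.63, 6.70 and 6.72 in quadriceps (2.79 ± 0.07, adjusted p = 1.72e-13). Col14a1, a fibre-binding collagen, measured 8.25, 8.32 and 8.37 in liver, against 7.54, 7.23 and 7.19 in quadriceps (0.99 ± 0.11). Col4a6 was higher by 0.28 (adjusted p = 0.0294), and it passed in 12 of 19 alternatives, with adjusted p-values up to 0.11 in the others. Col9a1 (0.22, adjusted p = 0.0516) and Col27a1 (0.20) had higher means without passing. Collagens I, VI and XII were lower in liver, with differences of -1.29 for Col1a1, -1.14 for Col12a1, -1.03 for Col1a2, -0.97 for Col6a3 and -0.95 for Col6a1, each with an adjusted p of 3.35e-06 or less.

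Between heart and gastrocnemius at 6 months, 34 of the 42 passed, where 75.5% of all genes passed (60.8% higher and 14.7% lower). The split of 31 higher and 3 lower in heart depended on scaling, since the median of all genes was itself 0.26 higher in heart. Quantile scaling gave 6 higher and 21 lower, centred arrays 5 and 31, and loess scaling 6 and 18. Relative to the all-gene median, 13 of the 42 lay above and 29 below, and the other scalings gave 13 or 14 above. The 5 largest positive differences kept their direction and passed under each scaling. Col4a5, the minor chain of collagen IV found in smooth muscle and heart, measured 6.81, 6.81, 6.85 and 6.83 in heart, against 5.43, 5.36, 5.43 and 5.49 in gastrocnemius (1.40 ± 0.05, adjusted p = 2.01e-13). Col4a2 was higher by 0.93, Col15a1 by 0.76, Col8a1 by 0.70 and Col4a1 by 0.64, and under the other scalings their lowest values were 0.52, 0.35, 0.29 and 0.24.

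All 6 chains of collagen IV were higher in heart as deposited, with a median of 0.51, while the other scalings left only 5 or 6 of all 42 collagen genes higher and past the threshold. Lower in heart were Col12a1 (-0.55, adjusted p = 0.000188), Col19a1 (-0.24) and Col6a3 (-0.23), which stayed lower and past the threshold under each scaling. Col1a1 (-0.14) and Col10a1 (-0.10) were lower without passing, and both passed after quantile, centred or loess scaling.

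**Figure D5:**
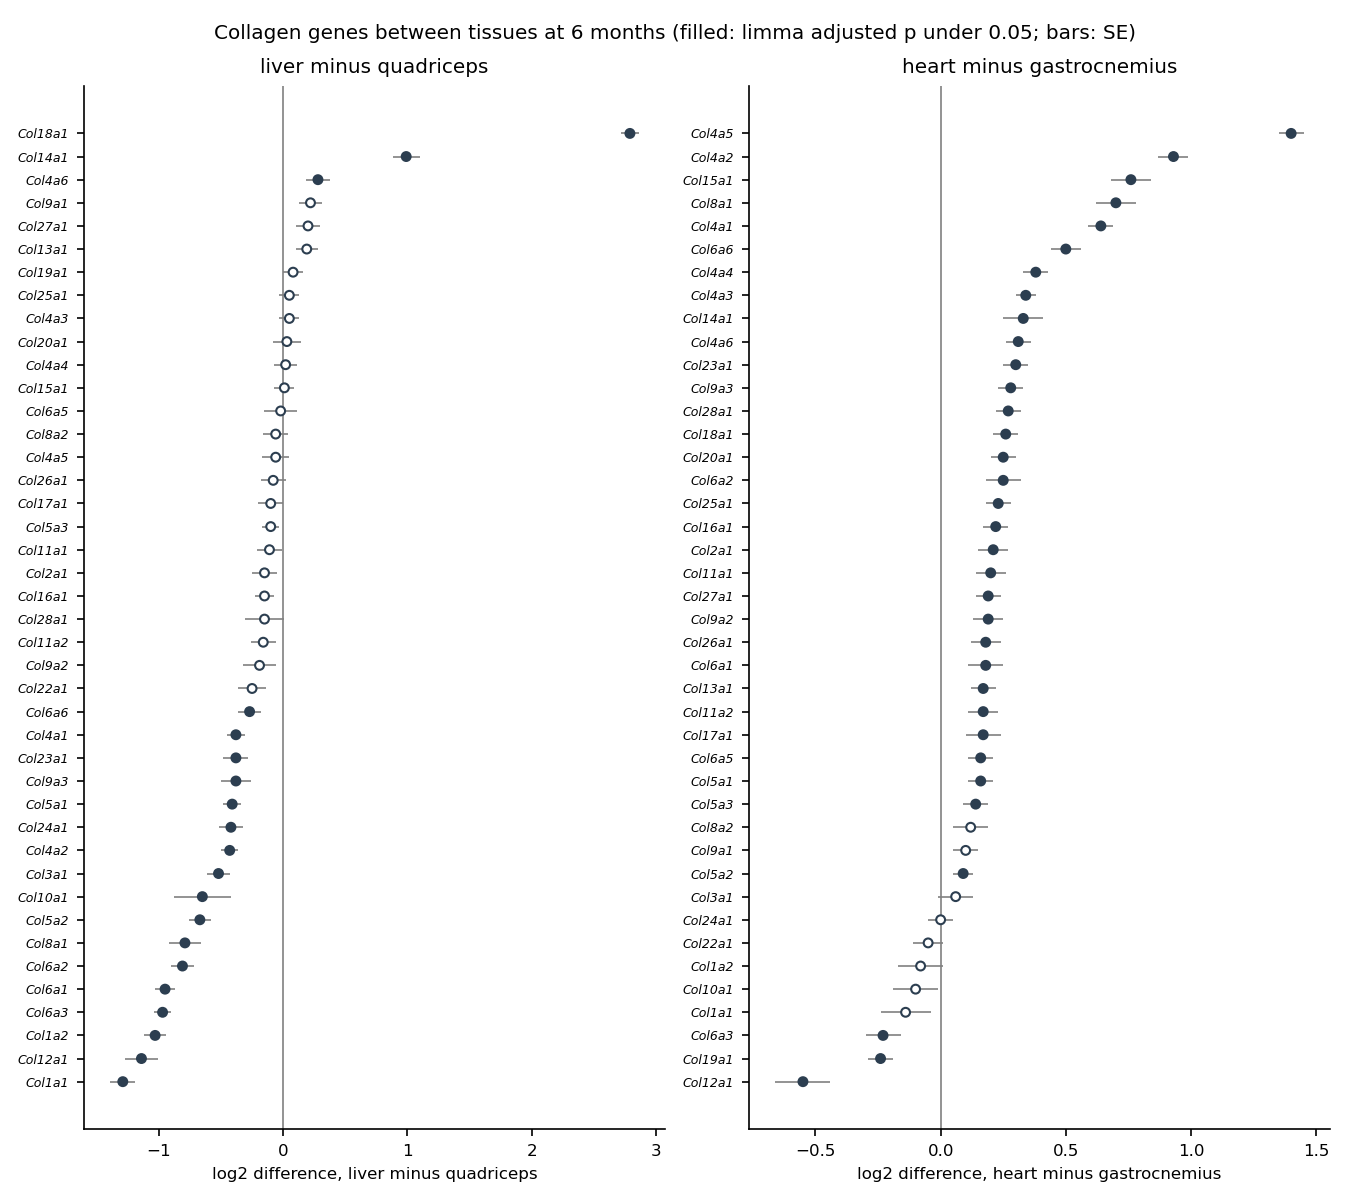
Tissue differences of the collagen genes at 6 months on the log2 scale, liver minus quadriceps and heart minus gastrocnemius, as limma estimates with standard errors. Filled points passed an adjusted p of 0.05. Col18a1 stands apart at 2.79 in liver, and Col4a5 at 1.40 in heart.

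The genes that modify, cut, bind and break down collagen were read from 7 lists. Between ages none of their members passed limma's adjusted threshold in any tissue. In liver the 18 genes for collagen modification and folding had a median of -0.11, opposite in sign to the collagens, with 12 lower and 6 higher. All genes of the brighter liver classes 7 to 9 also had negative medians, from -0.09 to -0.14. The part of brightness in this list was not tested. P4ha1, the catalytic subunit of the prolyl hydroxylase that stabilises the helix, measured 7.59, 7.56 and 7.67 in liver at 24 months, against 8.08, 8.27 and 8.88 at 6 months. The ages were far apart and the young arrays were spread (-0.80 ± 0.18, adjusted p = 0.0543). P4ha3, a second catalytic subunit, measured 5.83, 5.78 and 5.54 at 24 months, against 5.23, 5.37 and 5.37 at 6 months (0.39 ± 0.10, adjusted p = 0.0586). P4ha1 was -0.17 in quadriceps and -0.16 in heart.

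Among the other lists in liver, Mrc2, an endocytic receptor that takes up collagen fragments, measured 6.58, 6.62 and 6.60 at 24 months, against 6.08, 6.18 and 6.33 at 6 months (0.40 ± 0.09, adjusted p = 0.0543). Lair1, an inhibitory collagen receptor of leukocytes, was 0.35. Of the breakdown genes, Timp1, an inhibitor of matrix metalloproteinases, was 0.29 (adjusted p = 0.0885) and Mmp9, a gelatinase, 0.39, with 10 of 14 higher. Cleavage and cross-linking genes were higher for 12 of 13 (median 0.14), led by the propeptide proteases Adamts3 (0.25) and Tll2 (0.21). Of the growth factor genes, Smad2, which carries the TGF-beta signal, was -0.36 (adjusted p = 0.0571) and Ltbp3, which holds latent TGF-beta in the matrix, 0.40 (median of 19 genes -0.02). Among fibril-binding proteins Thbs1 was 0.33 and Mfap5 0.34 (median of 16 genes 0.14). Among basement membrane partners the laminin chains Lamb3 and Lamc3 were -0.57 (adjusted p = 0.0543) and 0.25 (median of 14 genes 0.04).

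In gastrocnemius several binding partners of collagen also had lower means at 24 months. Sparc, a collagen-binding protein of the basement membrane, measured 9.67, 9.43, 9.65 and 9.53 at 24 months, against 9.89, 9.82, 10.07 and 9.80 at 6 months, without overlap (-0.32 ± 0.08, adjusted p = 0.118). Hspg2, the heparan sulfate proteoglycan perlecan, was -0.34 (adjusted p = 0.141) and Nid1, which ties laminin to collagen IV, -0.23, with 10 of 14 basement membrane partners lower (median -0.08). The lysyl hydroxylase Plod1 was -0.20 and the prolyl hydroxylase P3h1 -0.11, with 10 of 17 modification genes lower. Mmp2, which cuts collagen IV, was -0.25, Mmp8 0.13, the receptor Mrc2 -0.12 and Pdgfrb, the PDGF receptor of pericytes and fibroblasts, -0.33. The opposite side held Lox, which cross-links collagen (0.27, adjusted p = 0.18), Mep1a (0.12), Itgb1, the beta subunit of the collagen-binding integrins (0.18), and Dcn, which coats fibres (0.13).

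Pdgfc, a ligand that drives fibroblasts through the PDGF receptor, had the smallest p of these lists in gastrocnemius. It measured 6.21, 6.24, 6.30 and 6.30 at 24 months, against 5.96, 5.95, 5.94 and 6.09 at 6 months, with all old arrays higher (0.28 ± 0.05, adjusted p = 0.103). In heart it measured 5.91, 5.95, 5.92 and 5.93 at 24 months, against 5.91, 6.01, 6.17 and 5.96 at 6 months, with overlap (-0.09 ± 0.06). The heart minus gastrocnemius difference of -0.36 ± 0.08 passed limma's adjusted threshold (adjusted p = 0.0453). It passed in 6 of 24 alternatives and missed in the other 18, among them quantile, centred and loess scaling, with adjusted p-values up to 0.107 with 1 array left out. Itgb1, the next, was -0.27 (adjusted p = 0.0824).

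Nid1 was -0.24 in quadriceps and -0.19 in heart, the smallest p of its list in both (adjusted p = 0.586 and adjusted p = 0.482). In quadriceps it measured 9.26, 9.14 and 9.14 at 24 months, against 9.50, 9.35 and 9.41 at 6 months, and in heart 9.19, 9.27, 9.28 and 9.16 at 24 months, against 9.40, 9.51, 9.43 and 9.33 at 6 months. The ages did not overlap in either tissue. Sparc in heart was -0.18 and Fbln1, a fibre-associated glycoprotein, -0.18, while Ccn2, an inducer of matrix synthesis, was -0.39 with overlapping arrays. Without the 2 atrial-low hearts Fbln1 was -0.07, Ccn2 -0.21, Nid1 -0.14 and Sparc -0.22. In heart Pdgfrb was -0.15, the laminin chain Lamb2 -0.16, Plod1 -0.12, Timp3 0.12 and the adhesion receptor Adgrg1, which binds collagen III, 0.31 (adjusted p = 0.44). In quadriceps Postn was -0.29, Lum -0.18, Lamc1 -0.17, Ero1a -0.18 and Pcolce, an enhancer of propeptide cleavage, -0.15. Higher means in quadriceps were those of Timp4 (0.37), Adgrg1 (0.28), Tgfb2 (0.25), Ltbp3 (0.22), Mmp8 (0.22) and Loxl4 (0.20), all with an adjusted p of 0.583 or more. Without quadriceps 6-month replicate 1, Timp4 was 0.22, Adgrg1 0.18, Mmp8 0.11 and Pcolce -0.05, and with all probe sets of a gene averaged Loxl4 was 0.07.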

How the data were processed

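The authors deposited log2 expression values per probe set for each array type, with robust multi-array averaging (RMA) named per the submitters' processing notes. The RMA software and its version are not given in the sources used here. Array medians of the deposited values differed between tissues (5.27 to 5.35 in heart and 4.88 to 4.97 in gastrocnemius), so other scalings were tried. Microarrays count no reads, so the number of arrays limits the precision. All columns were matched to samples, and 0 were left out.

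Probe sets with exactly 1 gene symbol were kept: 21797 of 28944 on the liver and quadriceps array (1613 with several symbols, 5534 with none) and 30604 of 65956 on the heart and gastrocnemius array (2146 and 33206). Symbols were updated through RefSeq GRCm38.p6 (23 and 1135 changed). Where a gene had several probe sets, the one of highest mean was used, leaving 19928 and 30063 genes.

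Differences were tested with limma 3.58.1 in R 4.3.3, two-sided, with Benjamini-Hochberg adjustment over all genes of a table and a threshold of 0.05. Each tissue's age difference was fitted on its own arrays. The difference of age differences between tissues, and the tissue difference at 6 months, came from a fit of 4 group means per array type. The procedure was tested on simulated data. Tables were prepared with Python 3.11.15 and pandas 2.3.3.

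Alternatives were quantile, median-centred and cyclic loess scaling, leaving out dim genes, averaging probe sets, a robust prior that follows intensity, a joint fit with the other tissue, array weights, a replicate block and leaving out each array. Correlations of the deviations of same-numbered samples ran from -0.22 to 0.30 and were over 0.1 for 3 of 4 pairs between ages in gastrocnemius. No comparison had every pair over 0.1, so the numbers were not taken to pair the samples. The core collagens were named in each tissue, with the 5 of smallest p, the 5 largest differences each way at 6 months, and the 2 genes of smallest p per list. Other collagen genes are named to describe their family. The collagen genes, the core collagens among them and all lists were chosen with earlier results of these data known.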

Additional observations from a re-analysis of the deposited data

Results flagged for a closer look

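Among groups of 4 arrays, 11 of 168 collagen gene values stood apart from the other 3 arrays of their group by Dixon's criterion. Chance marks about 1 in 20 groups of untied values. The criterion was applied to rounded values, so that rate need not hold. For Col4a2 and Col5a2 in heart and Col16a1 in gastrocnemius the other 3 arrays were equal after rounding. The groups of 3 arrays in liver and quadriceps were not tested.

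Gastrocnemius 6-month replicate 3 was high for 4 genes: Col4a1 at 7.44, against 7.19 to 7.22 on the other arrays of the group, Col4a2 at 7.56 against 7.30 to 7.34, Col5a2 at 6.51 against 6.44 to 6.45, and Col6a1 at 7.81 against 7.57 to 7.60. Gastrocnemius 6-month replicate 1 was high for Col4a3 at 5.99, against 5.92 to 5.93, and for Col25a1 at 5.47, against 5.41 to 5.42. Gastrocnemius 6-month replicate 2 was low for Col16a1 at 6.51, against 6.53 on the others.

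Heart 24-month replicate 2 was high for Col4a2 at 8.24, against 8.20 on the others, and for Col5a2 at 6.47, against 6.44. Heart 6-month replicate 4 was low for Col6a2 at 7.54, against 7.73 to 7.75, and for Col15a1 at 7.30, against 7.52 to 7.53. The age difference of Pdgfc differed between heart and gastrocnemius by -0.36 (limma, adjusted p = 0.0453), a call that 18 of 24 alternatives lost.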

How the results depend on the processing

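No alternative called a collagen gene between ages in quadriceps or heart, or in the heart minus gastrocnemius age difference. In liver the count past the threshold was 0 as reported, and 1 with centred arrays, 10 with dim genes left out, 5 with an intensity trend, 17 in the joint fit, 30 with array weights, and between 0 and 26 with 1 array left out, the 26 without 24-month replicate 3. The liver median was 0.16 with centred arrays, and the gastrocnemius median -0.03. The gastrocnemius count was 6 in the joint fit. The liver minus quadriceps age difference called 1 gene with dim genes left out, 1 with a trend, 9 with array weights, and 0 to 7 with 1 array left out. For none of these alternative counts is the share of all genes given here, so they are not results about the collagen genes. With the replicate block, which no label ties to a pairing, the collagen counts were 0 in each age comparison and 20 and 34 at 6 months. Same-numbered deviations between ages in gastrocnemius correlated by 0.13, 0.21 and 0.30 for replicates 1, 3 and 4, and by -0.04 for replicate 2.

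Some signs turned. Centred arrays gave liver values of -0.05 for Col1a2, -0.04 for Col4a1, -0.01 for Col15a1 and -0.06 for Col18a1, and quantile scaling gave -0.01 for Col27a1 between liver and quadriceps at 6 months, against 0.20 as reported. With array weights Col18a1 in heart was 0.01. With 1 array left out, quadriceps Col5a1 ran from -0.06 to 0.01 and Col6a2 from -0.10 to 0.02, and heart Col5a1 from -0.01 to 0.05 and Col18a1 from -0.03 to 0.02. Without both atrial-low 24-month hearts, an alternative chosen after seeing the data, Col6a2 was 0.00 and Col15a1 0.01. The causes were not tested. Groups of 3 or 4 arrays and unknown animals limit what can be told. Dim probe sets can understate differences, but in liver all genes of the dim classes 3 to 5 had positive medians, from 0.15 to 0.18.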
